A study of Homo sapiens with 3 samples.

Results

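Collagen chain genes were the 44 protein-coding genes whose symbol is COL, a number, A and a number, of 19974 protein-coding genes on chromosomes 1 to 22 and X. They were selected by name, a choice made with earlier results of these data known. Each was described by the H3K27ac and H3K4me3 peaks that overlapped its annotated span or the 1 kb on either side. By the role of the protein, 11 are fibrillar, 6 are chains of type IV collagen in basement membranes, 2 anchor epithelium to the matrix, and the other 25 are beaded filament, network, fibril-associated, transmembrane, multiplexin and unclassed collagens. The peaks came from chromatin immunoprecipitation and sequencing of HCC1599 cells, for which the labels give no treatment, an established triple-negative breast cancer line that the series calls MARCO-TST positive. One library was made with an Active Motif antibody against H3K27ac, an acetylation found at active promoters and enhancers. Another used a Cell Signaling Technology antibody against H3K4me3, a trimethylation found at promoters, and an input without antibody was not analysed here. Both libraries came from the same line, so no genotype, treatment or time was compared. With a single library per mark, nothing below was tested. A gene without a peak is a gene where none was called, since the read depth is unknown here.

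Collagens are secreted or membrane proteins in which 3 chains wind into a triple helix. Fibrillar collagens form the tensile fibres of connective tissue and come mostly from fibroblasts and related cells. Type IV collagen forms the sheet-like network under epithelia, and its genes lie in head-to-head pairs that share a promoter region. COL7A1 encodes the anchoring fibrils below the basement membrane and COL17A1 a transmembrane collagen of the hemidesmosome, both products of basal epithelial cells.

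Marker genes of the labelled cell type and of other cell types were described. These lists were chosen with earlier results of these data known, so they are no independent check of the label. Of all protein-coding genes, 68.2% held both marks in the gene or within 1 kb and 19.3% neither. All 8 epithelial markers examined (EPCAM, CDH1, KRT5, KRT8, KRT18, CLDN3, CLDN4 and ESRP1) held both marks in the span or within 1 kb. Of 8 fibroblast markers, 2 held both (PDGFRA and FBLN1), 4 held H3K27ac only, with highest scores of 32.9 to 107, and DCN and POSTN had no peak of either mark. None of 4 endothelial markers held H3K4me3; 3 held H3K27ac, with a score of up to 1591 in VWF, and 1 of 4 macrophage markers (CD68) held both. The score is the authors' value for each peak; its unit is not stated, it runs from 30 to 3233 in both lists, 33.4% of H3K4me3 peaks share the value 3100, and it is used only to rank peaks within a list.

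Most collagen genes held both marks somewhere in the gene, but few held both at the start. Over the gene and its flanks, 30 of 44 had both marks (68.2%, exact Clopper-Pearson 95% interval 52.4 to 81.4), 4 had H3K4me3 only, 6 had H3K27ac only and 4 had neither. H3K4me3 of any kind was called in 34 collagens (77.3%) and 75.5% of all protein-coding genes, and H3K27ac in 36 (81.8%) and 73.4%. Among all protein-coding genes these shares were 68.2%, 7.33%, 5.17% and 19.3%, so the share of collagens with both marks equalled the background. Collagen genes are long, with a median span of 144672 bp against 24170.5 bp for all protein-coding genes, and a long gene has more room for a peak. The 22 collagens within the interquartile range of collagen lengths (40809 to 212457 bp) had both marks in 12 cases (54.5%) and neither in 3 (13.6%), against 82.8% and 5.93% of the 6025 protein-coding genes in that range. Within the range the collagens were still longer, with a median of 144672 bp against 78171 bp. Intervals here cover counting error only, and the head-to-head genes below count 1 peak for each member of a pair.

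Per gene, collagens held about as many peaks as other genes, and per length fewer. The median was 2 H3K27ac peaks per gene in collagens and in all protein-coding genes, and the means were 3.23 and 2.60. For H3K4me3 the median was 1 in both, with means of 1.61 and 1.37. H3K27ac covered a median of 1859.5 bp of a collagen gene and 1977 bp of a protein-coding gene. Over the longer spans of collagen genes, the median number of H3K27ac peaks per 100 kb was 1.45 in collagens and 4.22 in all protein-coding genes. In the like-length range, the 22 collagens had a median of 1.5 H3K27ac peaks per gene covering 0.741% of the gene and its flanks, against 3 peaks and 4.05% for the 6025 genes, and a median of 1 H3K4me3 peak in both. The 44 genes held 141 different H3K27ac peaks and 68 H3K4me3 peaks. The H3K27ac peaks were 746 bp wide at the median, where those of all protein-coding genes were 957 bp. Their median score was 53.6, where that of all genes was 76.3, and 25.5% against 43.1% of them overlapped H3K4me3. Of the 141, 4 scored 3100 or more (2.84%, against 4.31% in protein-coding genes), 2 in COL27A1 and 2 in COL18A1.

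**Figure D1:**
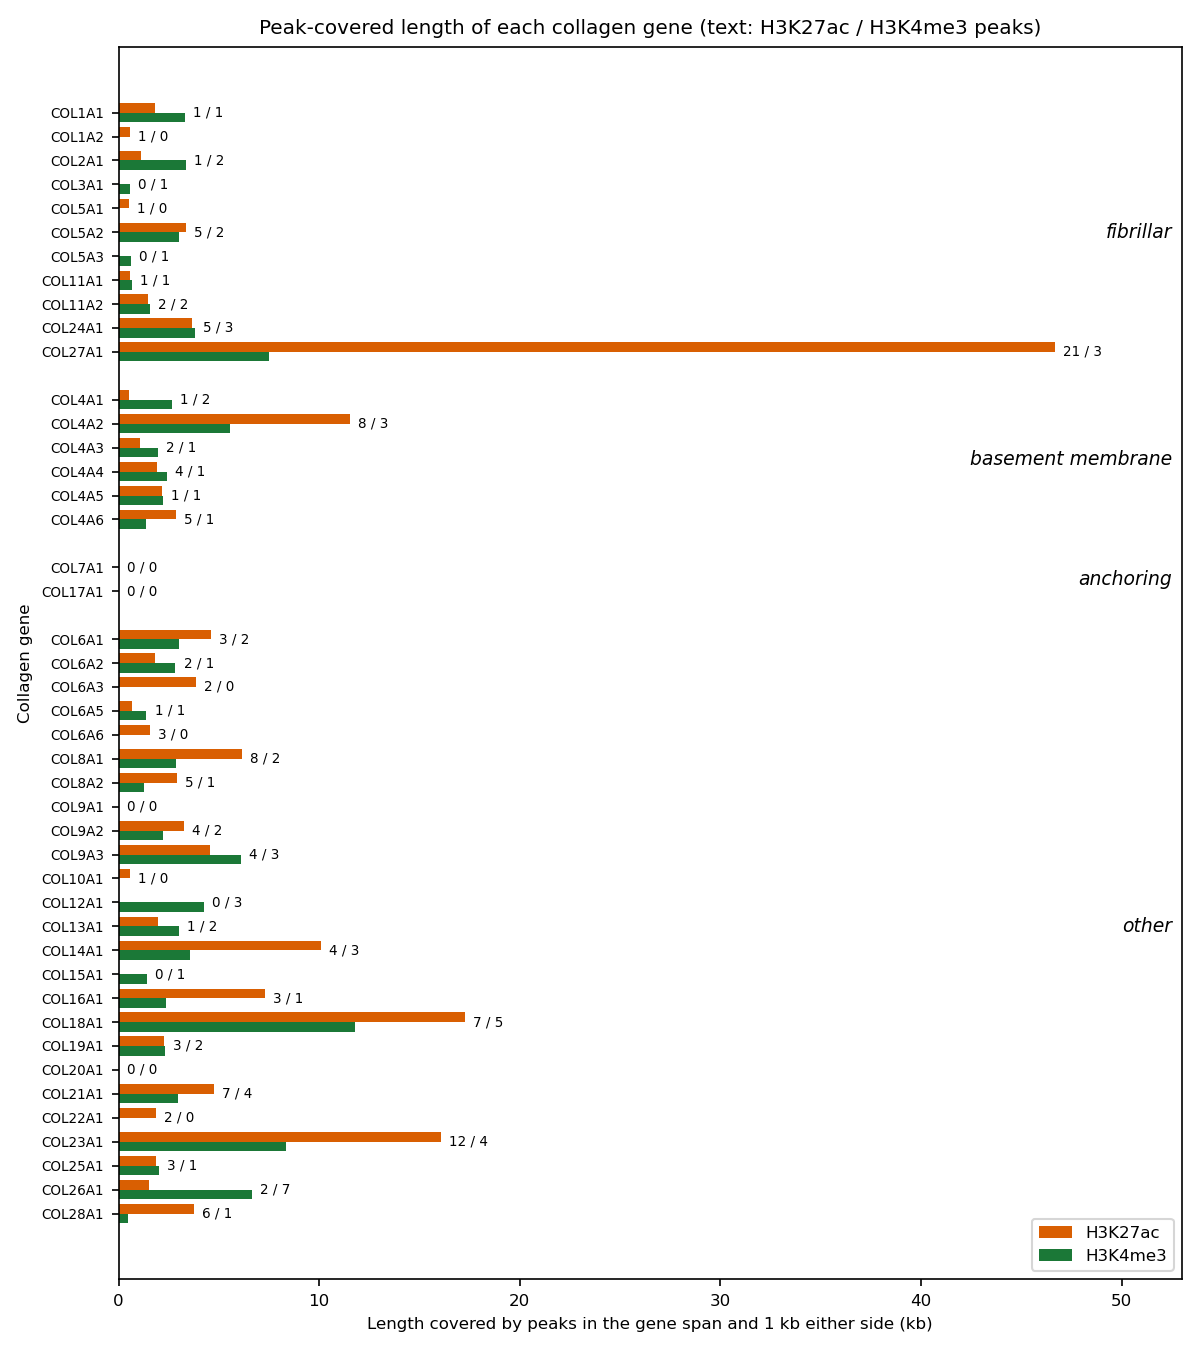
Length in kb covered by H3K27ac peaks (orange) and H3K4me3 peaks (green) in the span and 1 kb either side of each collagen gene, with 1 library per mark; the text beside the bars gives the number of peaks of each mark. COL27A1 stands out with 46683 bp of H3K27ac in 21 peaks, and COL7A1, COL17A1, COL9A1 and COL20A1 have no bar.

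At the gene start the picture differed from that of the whole gene. H3K4me3 without H3K27ac was within 1 kb of the start in 17 of 44 collagens (38.6%, 24.4 to 54.5), against 12.3% of all protein-coding genes. Both marks were at the start of 11 (25%, 13.2 to 40.3), against 57.7%. Of the 22 collagens in the like-length range, 8 had H3K4me3 only (36.4%) and 5 both marks (22.7%), against 14.2% and 67.2% of the 6025 genes. H3K27ac alone was at the start of 2, COL8A2 and COL10A1, which is 4.55% against 2.27% of all genes, and 14 (31.8%) had neither mark there against 27.8%. Where a collagen start had H3K4me3, H3K27ac was present in 39.3% of cases (21.5 to 59.4), against 82.5% of all protein-coding genes. In the like-length range the share was 38.5% in collagens and 82.5% in the 6025 genes. The intervals at the start also cover counting error only and take genes as independent. Each head-to-head pair of type IV genes counts 1 shared H3K4me3 peak for both members. Starts came from a promoter table for 32 collagens, several of them with more than 1 start; for COL1A1, COL1A2, COL2A1, COL3A1, COL5A2, COL6A1, COL6A5, COL8A1, COL9A3, COL14A1, COL20A1 and COL22A1 either annotated end was taken. Among the 32 alone, 12 had H3K4me3 only (37.5%) and 9 both marks (28.1%), against 12.1% and 60.0% of the 15812 genes in that table.

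**Figure D2:**
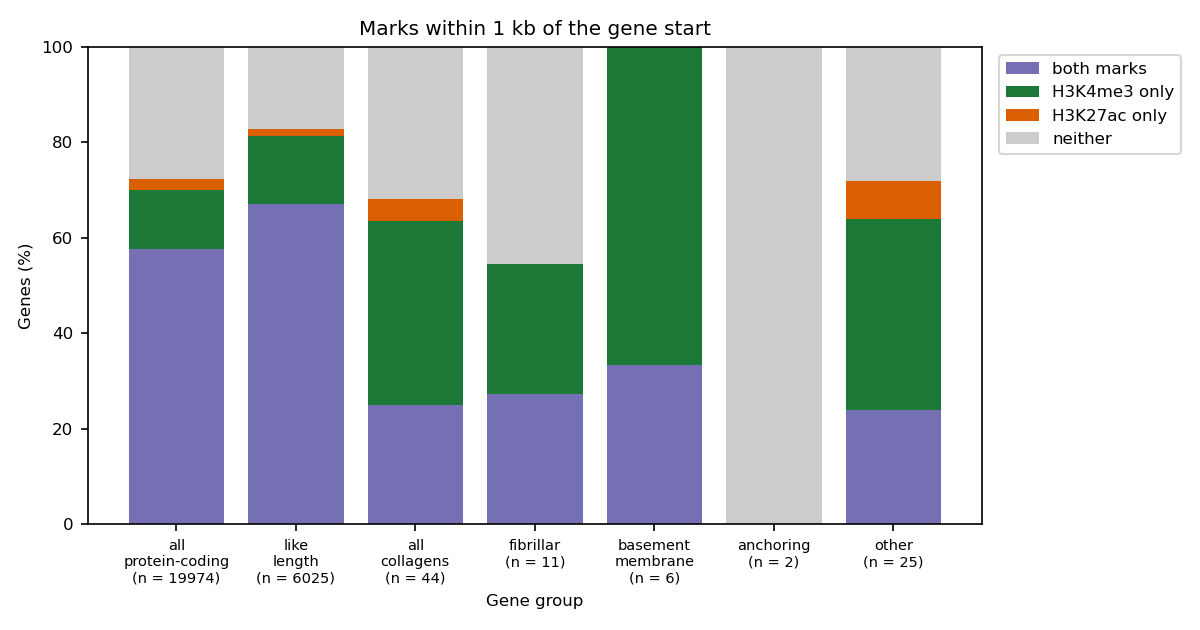
Share of genes in percent with both marks, H3K4me3 only, H3K27ac only or neither within 1 kb of the gene start, for all protein-coding genes, those of like length, all collagens and the collagen classes, with the number of genes under each bar. H3K4me3 only makes up 38.6% of collagens and 12.3% of all protein-coding genes, and both anchoring collagens have neither mark.

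H3K4me3 start peaks reached a score of 3100 in 15 of 28 collagens with such a peak (53.6%), against 77.2% of 13972 protein-coding genes. The share was 72.7% against 87.8% where both marks were present. Of the 17 collagens with H3K4me3 only, 7 had a start peak with a score of 3100 or more (41.2%), against 27% of the 2447 protein-coding genes in that state. Among collagens whose H3K4me3 start peak scored at least 3100, 8 of 15 had H3K27ac at the start (53.3%), against 93.9% of 10781 protein-coding genes. The 7 without it were COL4A1, COL4A2, COL4A5, COL4A6, COL19A1, COL23A1 and COL25A1. Of these, COL4A1 with COL4A2 and COL4A5 with COL4A6 each share 1 H3K4me3 peak, which is counted for both genes. COL4A3 and COL4A4, among the 8 with H3K27ac, also share 1. Below a score of 3100, 3 of 13 collagens (23.1%) and 44.0% of protein-coding genes had H3K27ac at the start. At the 11 collagen starts with both marks, H3K27ac had a median score of 228 and a median width of 918 bp. Over all protein-coding genes with both marks at the start these were 664 and 2040 bp. The window of 1 kb left some peaks just outside: COL1A1 had an H3K27ac peak 1108 bp from its end, COL23A1 one at 1827 bp, and COL11A1 an H3K4me3 peak at 1355 bp. The H3K27ac peaks of COL1A1 and COL23A1 lay inside the H3K4me3 peak at that end or start.

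**Figure D3:**
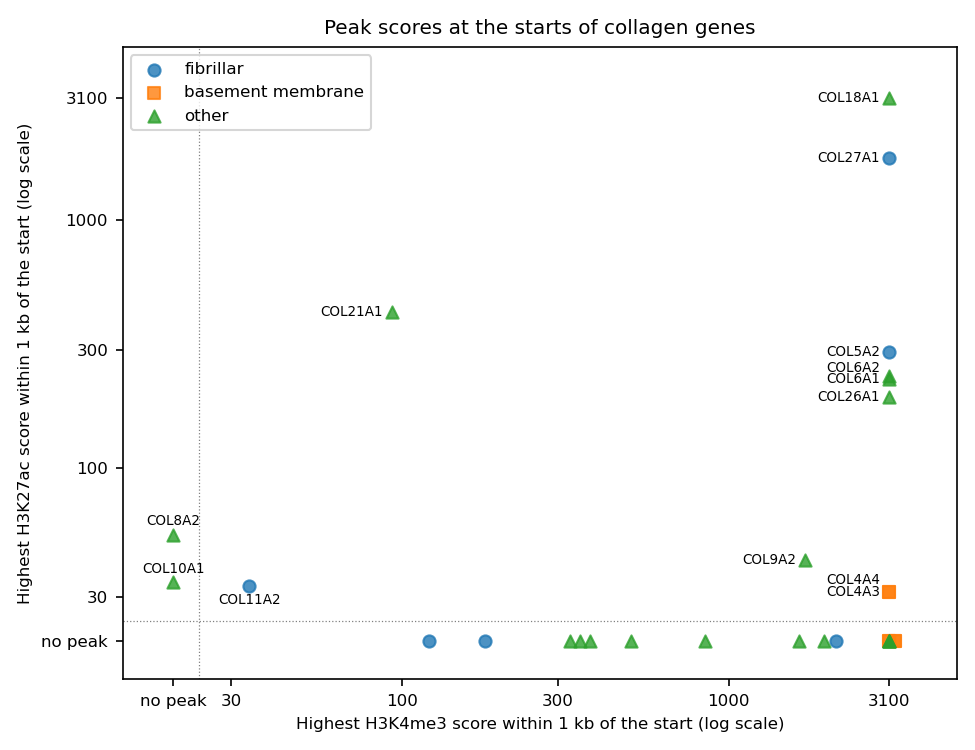
Highest H3K4me3 score (horizontal, log scale) and highest H3K27ac score (vertical, log scale) among peaks within 1 kb of the start of each collagen gene with a mark there, by class; points beyond the dotted lines had no peak of that mark, and points at the same score overlap. COL18A1 (3100) and COL27A1 (1776) have the highest H3K27ac scores, and 17 genes lie in the row without H3K27ac.

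Among the 11 fibrillar collagens, 7 held both marks in the gene (63.6%), 2 H3K4me3 only and 2 H3K27ac only. Over all protein-coding genes these shares were 68.2%, 7.33% and 5.17%. At the start 3 held both (27.3%), 3 H3K4me3 only (27.3%) and 5 neither (45.5%). The shares over all protein-coding genes were 57.7%, 12.3% and 27.8%. COL1A1, a chain of type I collagen, had 1 H3K4me3 peak of 3319 bp with a score of 2138 at its higher-coordinate end, chr17:50198394-50201712. Its single H3K27ac peak of 1797 bp, with a score of 766, lay inside that H3K4me3 peak, at chr17:50198727-50200523. COL1A2, the partner chain, had no H3K4me3 and 1 H3K27ac peak of 570 bp with a score of 35.4, which lay 6042 bp from the nearer end of the gene. COL3A1, the chain of type III collagen, had 1 H3K4me3 peak of 592 bp with a score of 34.5 and no H3K27ac. COL1A1 thus carried both marks with well-scored peaks, while the single peaks of COL1A2 and COL3A1 scored close to the minimum of 30.

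The chains of type V collagen, which sits within the fibrils of type I, also differed among themselves. COL5A1 had no H3K4me3, and its only H3K27ac peak, 537 bp wide with a score of 35.5, lay 14327 bp from a start. The nearest H3K4me3 peak to the COL5A1 start was 205722 bp away, although its promoter windows were rich in CpG (observed over expected 0.88 and 0.89). COL5A2 had an H3K4me3 peak of 3542 bp with a score of 3100 and H3K27ac peaks of 816 and 918 bp with scores of 292 and 291 at its higher-coordinate end, chr2:189439756-189443297. That end also lies within 1 kb of WDR75, a ribosome biogenesis gene, so these peaks cannot be assigned to either gene. Its other 3 H3K27ac peaks, inside the gene, scored 31.2 to 39.7. COL5A3 had 1 H3K4me3 peak at its start, 608 bp wide with a score of 121, and no H3K27ac.

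The chains of types II and XI, which form cartilage fibrils, had few peaks at their starts. COL2A1, the main chain of cartilage fibrils, had H3K4me3 peaks of 2596 bp and 770 bp with scores of 1264 and 61.6 inside the gene, and 1 H3K27ac peak with a score of 38.8. COL11A1 had 1 peak of each mark, with an H3K4me3 score of 63.5 and an H3K27ac score of 33.0. COL11A2 had weak peaks near its start, with an H3K4me3 score of 34.1 in a peak that also lay within 1 kb of an end of RXRB, a retinoid X receptor gene, and an H3K27ac score of 33.4. Its strong peaks, with scores of 2300 for H3K4me3 and 1290 for H3K27ac, lay at the far end of the gene. COL24A1, which spans 427752 bp, had an H3K4me3 peak of 1647 bp with a score of 180 at its start, and its strongest H3K27ac peak, with a score of 247, lay 179631 bp from the nearer start. Without the peaks that reach ends of WDR75 and RXRB, COL27A1 was the fibrillar collagen left with both marks at its start.

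COL27A1, a fibrillar chain of cartilage, had by far the most H3K27ac of the 44 genes. Its 158414 bp on chromosome 9 held 21 H3K27ac peaks that covered 46683 bp, or 29.1% of the gene and its flanks; 86 of 19974 protein-coding genes (0.431%) had as much covered length. Of the 3522 genes between 0.5 and 2 times as long, 54 did (1.53%), and the median of those 3522 was 4268 bp. The start carried both marks, with H3K4me3 over 5009 bp (score 3100) and H3K27ac over 2083 bp (score 1776). Beyond the start, H3K27ac peaks of 4297 and 3294 bp with scores of 2994 and 1522 lay from 19247 bp downstream, followed by a peak of 9440 bp with a score of 3100 at chr9:114202398-114211837. An end of MIR455, a microRNA gene within COL27A1, lies within 1 kb of that peak. A peak of 4493 bp with a score of 1387 and one of 8234 bp with a score of 3100 lay in the distal part of the gene and at its far end, chr9:114310616-114318849. H3K4me3 overlapped 5 of the 21 H3K27ac peaks, and the H3K4me3 peaks away from the start scored 92.8 and 183.

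All 6 type IV collagen genes had H3K4me3 at the start, with scores of 3100 or more, and weak H3K27ac or none there. Both marks were somewhere in each gene, 6 of 6, but H3K27ac was at the start of 2 and H3K4me3 only at the start of 4. Of all protein-coding genes, 68.2% held both marks in the gene, and 70.0% had H3K4me3 at the start. H3K4me3 only was at the start of 12.3%. Where H3K4me3 was at the start, 77.2% of protein-coding genes had a start score of 3100 or more. The genes form 3 head-to-head pairs, and in each pair a single H3K4me3 peak spanned the outermost start of both genes. The other annotated start of COL4A6 lay 682 bp outside the peak of its pair. COL4A1 and COL4A2, the chains found in nearly all basement membranes, shared a peak of 2956 bp with a score of 3227 at chr13:110306219-110309174. COL4A4 and COL4A3, whose network is that of the kidney glomerulus, shared a peak of 2514 bp with a score of 3100 at chr2:227163065-227165578. COL4A6 and COL4A5, the X-linked pair, shared a peak of 2203 bp with a score of 3100 at chrX:108439104-108441306. The 6 genes therefore hold 3 separate H3K4me3 start peaks.

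The stretches between the paired genes lie under those peaks. They are shown because the outermost starts of the 6 genes carried H3K4me3 while H3K27ac was weak or absent. They are from RefSeq (GRCh38.p14), on the plus strand, and end at the last base before the plus-strand gene: chr13:110307158-110307283 (126 bases, the whole stretch), chr2:227164489-227164623 (135 bases, the whole stretch) and chrX:108439588-108439837 (the 250 of 379 bases next to COL4A5). Capitals mark matches on either strand to GGGCGG (the GC box), CCAAT (the CCAAT box), TATAAA (the TATA box) and TGANTCA (the AP-1 site).
COL4A1-COL4A2: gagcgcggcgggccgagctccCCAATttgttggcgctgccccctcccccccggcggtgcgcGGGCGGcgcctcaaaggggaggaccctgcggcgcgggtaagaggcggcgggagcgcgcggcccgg
COL4A4-COL4A3: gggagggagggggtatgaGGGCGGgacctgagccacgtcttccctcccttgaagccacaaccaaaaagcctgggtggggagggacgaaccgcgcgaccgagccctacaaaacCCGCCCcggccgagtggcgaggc
COL4A6-COL4A5: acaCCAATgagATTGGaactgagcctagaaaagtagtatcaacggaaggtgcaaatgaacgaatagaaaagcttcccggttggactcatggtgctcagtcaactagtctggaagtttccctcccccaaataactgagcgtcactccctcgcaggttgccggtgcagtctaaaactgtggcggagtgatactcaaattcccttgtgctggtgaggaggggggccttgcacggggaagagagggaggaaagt
The COL4A1-COL4A2 stretch held 1 GC box and 1 CCAAT box, with 80.2% G and C and a CpG ratio, observed over expected, of 0.996. The COL4A4-COL4A3 stretch held 2 GC boxes, with 68.1% G and C and a CpG ratio of 0.707. The COL4A6-COL4A5 bases held 2 CCAAT boxes, with 51.2% G and C and a CpG ratio of 0.501. Over the last 126 bases before 22132 starts of protein-coding genes, 44.5% held a GC box and 22.5% a CCAAT box; over 135 bases 45.7% held a GC box, and over 250 bases 32.7% held a CCAAT box. A match is a description of these letters and does not show a bound factor.

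Apart from 1 weak peak at the COL4A3 and COL4A4 starts, H3K27ac in the type IV genes lay inside the genes. The nearest H3K27ac peak to the COL4A1-COL4A2 starts was 40783 bp from the COL4A2 start and scored 82.0. COL4A1 itself held 1 weak H3K27ac peak, of 507 bp with a score of 32.4. COL4A2 held 8, covering 11538 bp, and the strongest, at chr13:110445124-110450414, had a score of 2114 over 5291 bp and lay 137840 bp from the start. An H3K27ac peak of 1762 bp with a score of 165, 80178 bp from the start, was paired with an H3K4me3 peak of 1676 bp and score 163. For COL4A2, 611 of the 2786 genes between 0.5 and 2 times as long (21.9%) had as much covered length of H3K27ac.

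The remaining type IV pairs had less. COL4A3 and COL4A4 shared a start peak of H3K27ac of 462 bp with a score of 31.6, close to the lowest score in the list, and beyond it COL4A3 held 1 peak with a score of 70.5 and COL4A4 held 3 with scores of 36.5 to 48.1. COL4A5 held 1 H3K27ac peak, of 2172 bp with a score of 512, 201061 bp from its start. COL4A6 held 5, with scores of 30.4 to 86.1, the nearest 124836 bp from a start. Of the 20 H3K27ac peaks in type IV genes, 13 (65.0%) scored under 50, against 36.1% of the H3K27ac peaks in all protein-coding genes. Among peaks that scored at least 100, COL4A2 and COL4A5 were the type IV genes with both marks.

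**Figure D4:**
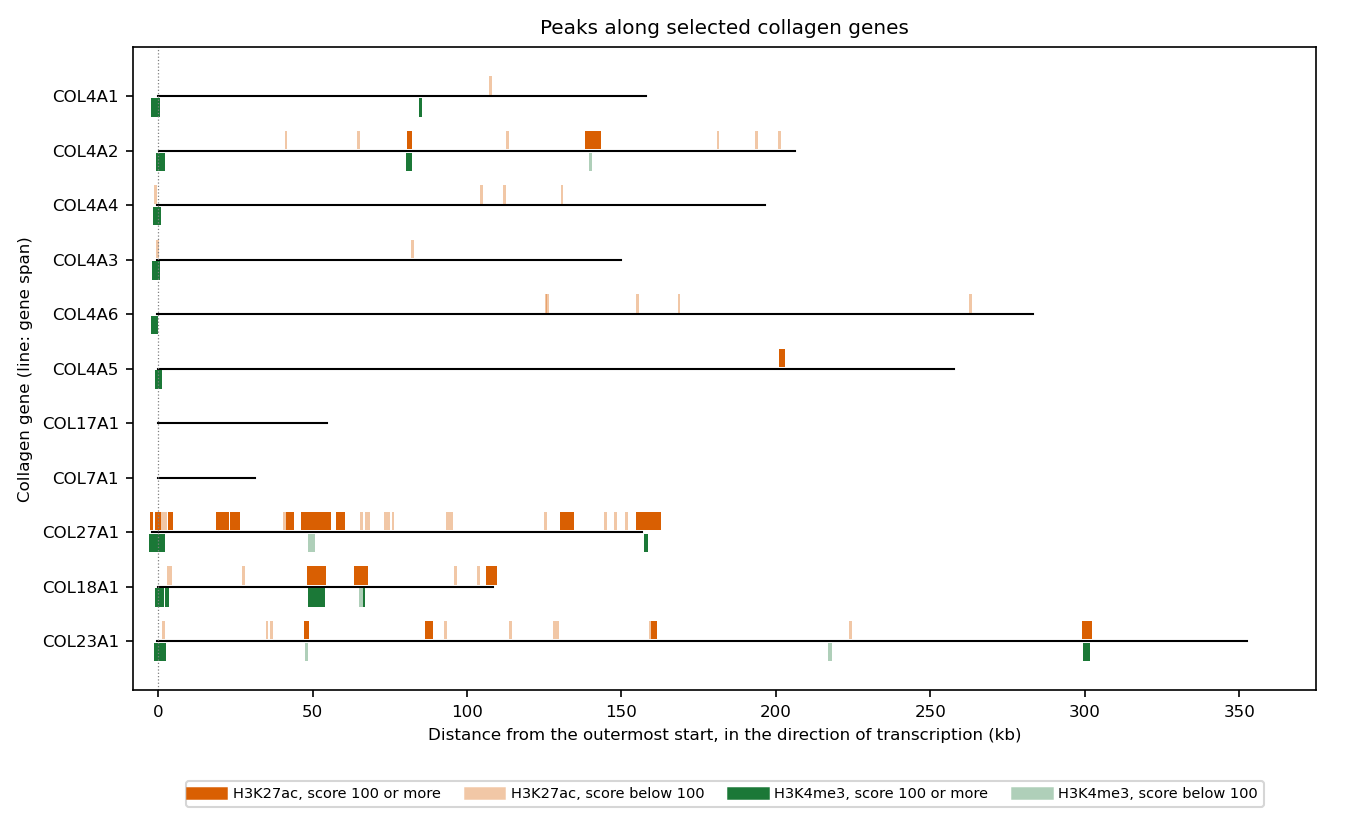
H3K27ac peaks (orange, above each line) and H3K4me3 peaks (green, below) by distance in kb from the outermost annotated start, in the direction of transcription, for 11 collagen genes; the line is the gene span, pale boxes are peaks scoring under 100, and boxes narrower than 0.9 kb are drawn at 0.9 kb. H3K4me3 sits at the start of all 6 type IV genes, COL7A1 and COL17A1 are empty, and COL27A1 carries H3K27ac along its length.

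Both anchoring collagens lacked both marks. COL17A1, at chr10:104031286-104085880, had no peak of either mark in its 54595 bp or within 1 kb. The nearest H3K4me3 peak was 15036 bp and the nearest H3K27ac peak 17853 bp beyond its far end; both scored 32.7 and lay at SLK, a kinase gene. COL7A1, at chr3:48564073-48595329, likewise had none. The nearest H3K27ac peak to COL7A1, of 2477 bp with a score of 859, began 1416 bp upstream of its start and lay at UQCRC1, a gene of the respiratory chain, and the nearest H3K4me3 peak to the gene, with a score of 3100, lay 5445 bp beyond its far end at PFKFB4, a glycolysis regulator gene. With a flank of 5 kb COL7A1 would therefore be counted with H3K27ac only. Genes with neither mark in this window were 19.3% of all protein-coding genes.

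Other genes of the hemidesmosome, the junction that holds basal cells to the basement membrane, had marks where COL17A1 had none. Of 5 such genes, 5 held both marks at the start, as did 57.7% of all protein-coding genes. The H3K27ac start scores of the integrin genes were 144 at ITGA6 and 54.5 at ITGB4, and those of the plakin genes 1280 at PLEC and 1398 at DST. KRT5, a keratin of basal cells, had H3K27ac and H3K4me3 start scores of 3100. A wide range of H3K27ac scores at the partners thus stood beside a COL17A1 locus with no called peak.

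The 250 bases before the annotated starts of the anchoring genes are shown because they carried neither mark and differ in composition. They are from RefSeq (GRCh38.p14), each on the minus strand, at chr3:48595330-48595579 and chr10:104085881-104086130, with capitals as above.
COL7A1: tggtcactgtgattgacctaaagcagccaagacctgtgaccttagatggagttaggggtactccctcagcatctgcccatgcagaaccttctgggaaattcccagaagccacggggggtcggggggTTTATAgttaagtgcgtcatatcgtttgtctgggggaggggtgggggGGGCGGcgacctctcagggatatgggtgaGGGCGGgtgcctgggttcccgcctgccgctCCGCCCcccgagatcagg
COL17A1: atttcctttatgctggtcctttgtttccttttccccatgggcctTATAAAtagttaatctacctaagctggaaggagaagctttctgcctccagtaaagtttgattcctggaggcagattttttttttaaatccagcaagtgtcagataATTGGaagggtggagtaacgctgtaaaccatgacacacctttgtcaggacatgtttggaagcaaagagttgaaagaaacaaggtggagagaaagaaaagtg
The COL17A1 bases held 40.4% G and C and 1 CpG, with 1 TATA box and 1 CCAAT box. The COL7A1 bases held 60.8% G and C and 11 CpG, with 3 GC boxes and 1 TATA box. Over the same length before all 22132 starts, 53.7% held a GC box and 9.0% a TATA box. Neither stretch held the AP-1 site, which 5.35% of starts did, and that says only that those letters are absent from these bases.

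Of the 25 other collagens, 17 held both marks in the gene (68%), 2 H3K4me3 only, 4 H3K27ac only and 2 neither. Over all protein-coding genes these shares were 68.2%, 7.33%, 5.17% and 19.3%. At the start, 6 held both (24%), 10 H3K4me3 only (40%), 2 H3K27ac only (8%) and 7 neither (28%). The shares over all protein-coding genes were 57.7%, 12.3%, 2.27% and 27.8%. COL18A1, whose collagen of basement membranes releases endostatin, had the most H3K4me3 of the 44 genes, 11771 bp in 5 peaks, and 17262 bp of H3K27ac in 7 peaks. Its 2 annotated starts differed. The outer start, at position 45405165 of chromosome 21, had H3K4me3 over 2962 bp with a score of 1720 and no H3K27ac within 1 kb, the nearest being 2909 bp away with a score of 32.4. The inner start, at 45455522, lay under H3K4me3 of 5437 bp and H3K27ac of 6314 bp, both with a score of 3100. A further H3K27ac peak of 4507 bp, 13245 bp from the nearer start, had a score of 3233, the highest in the list.

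The bases before these starts are shown because 1 gene holds both states. They are from RefSeq (GRCh38.p14), on the plus strand, at chr21:45404915-45405164 for the outer and chr21:45455272-45455521 for the inner start.
COL18A1 outer start: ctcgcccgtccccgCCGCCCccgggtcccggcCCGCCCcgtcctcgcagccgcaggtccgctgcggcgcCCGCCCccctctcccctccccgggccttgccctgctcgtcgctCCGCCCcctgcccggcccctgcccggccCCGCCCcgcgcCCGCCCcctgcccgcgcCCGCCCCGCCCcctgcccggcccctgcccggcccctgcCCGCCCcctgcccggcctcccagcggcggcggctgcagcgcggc
COL18A1 inner start: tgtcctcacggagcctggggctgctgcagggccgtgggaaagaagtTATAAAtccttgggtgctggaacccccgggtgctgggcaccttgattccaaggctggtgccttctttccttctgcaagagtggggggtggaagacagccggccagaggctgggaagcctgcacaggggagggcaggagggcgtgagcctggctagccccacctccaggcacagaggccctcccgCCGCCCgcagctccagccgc
The start with H3K4me3 alone had the denser CpG: 88.4% G and C, 37 CpG and 9 GC boxes, some of which overlap. The start with both marks had 66.4% G and C, 9 CpG, 1 GC box and 1 TATA box.

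COL23A1 and COL14A1 followed COL18A1 in H3K27ac covered length among the other collagens with both marks. COL23A1, a transmembrane collagen, held 12 H3K27ac peaks over 16047 bp with a highest score of 618, and its start had H3K4me3 of 3843 bp with a score of 3100. COL14A1, which binds to fibrils, held 4 H3K27ac peaks over 10094 bp with a highest score of 557, and its end peak of H3K4me3 scored 352. Neither had H3K27ac within 1 kb of a start or end. The same was true of COL13A1 and COL25A1. All 3 transmembrane collagens of this class, COL13A1, COL23A1 and COL25A1, thus had H3K4me3 only at the start, with scores of 1641, 3100 and 3100. That state was at the start of 12.3% of all protein-coding genes. For COL23A1 it rests on the 1 kb window. An H3K27ac peak with a score of 54.9 lay inside its H3K4me3 start peak, 1827 bp from the start. COL19A1, a fibril-associated collagen, also had a score of 3100 at its start, 68946 bp from the nearest H3K27ac peak.

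Type VI collagen, which forms beaded filaments around cells, was split by gene. COL6A1 and COL6A2, neighbours on chromosome 21, had both marks at an end or start, with H3K4me3 scores of 3100 and H3K27ac scores of 228 and 234. COL6A3, their partner chain on chromosome 2, had no H3K4me3; its H3K27ac peaks, of 3107 and 752 bp with scores of 1004 and 33.9, lay at least 53884 bp from the start. COL6A5 had H3K4me3 at an end with a score of 378 and 1 H3K27ac peak with a score of 37.1, and COL6A6 had 3 H3K27ac peaks with scores of 31.7 to 43.3 and no H3K4me3. The chains that assemble with one another thus carried different marks in these libraries.

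COL12A1 and COL15A1 were the other collagens with H3K4me3 only. COL12A1, which binds to fibrils, held 4280 bp in 3 peaks, with a start score of 1953, and COL15A1, a multiplexin of basement membranes, held 1 peak of 1410 bp with a score of 502. With H3K27ac only, COL6A3 (3859 bp), COL22A1 (1856 bp) and COL6A6 (1573 bp) had the greatest length. The peaks of COL22A1 scored 32 and 36.9, near the minimum of 30. COL10A1, the collagen of hypertrophic cartilage, had 1 peak of 552 bp with a score of 34.4 at an inner start. COL16A1 had strong H3K27ac, of 3463 and 2575 bp with scores of 1045 and 1330, more than 32 kb from a start that had neither mark; an end of the uncharacterised gene LOC101929444 lies within 1 kb of the second. COL26A1 had the most H3K4me3 peaks of the 44 genes, 7, and 258 of 19974 protein-coding genes (1.29%) had as many. Of the 2912 genes between 0.5 and 2 times as long, 146 did (5.01%). One of its peaks scored 3100 and the rest 41.0 to 94.9. COL9A1 and COL20A1 had neither mark, with the nearest peak of either mark 40271 and 7768 bp from the gene.

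The rest of the class had weaker or mixed marks. COL8A1 held 8 H3K27ac peaks with scores up to 282 and H3K4me3 at an end with a score of 845, whereas COL8A2, its partner in a network under the corneal endothelium, held 5 H3K27ac peaks scoring 32.7 to 62.0 and an H3K4me3 peak far from the start. COL9A2 had both marks at its start, with scores of 1714 for H3K4me3 and 42.6 for H3K27ac. COL9A3 had H3K4me3 without H3K27ac at an end, with a score of 328. Inside the gene COL9A3 held H3K4me3 peaks with scores of 483 and 323 and 4 H3K27ac peaks with scores up to 266. COL21A1 had both at the innermost of its 3 starts, with an H3K27ac score of 425 and an H3K4me3 score of 93.4. COL28A1 held 6 H3K27ac peaks, none near its start, with scores of 32.2 to 138.

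Promoter composition was compared over the 44 start windows of 32 collagens, each of 250 bases before to 50 after a start. Windows with both marks, H3K4me3 only and neither had median CpG ratios of 0.763, 0.718 and 0.331, against 0.847, 0.772 and 0.266 over 22132 windows of protein-coding genes. In both sets the windows with neither mark had the lowest median of these 3 states. Among windows with a CpG ratio of at least 0.6, 11 of 22 collagen windows had H3K4me3 only (50%) and 6 both marks (27.3%), against 15.0% and 77.5% of 13768 protein-coding windows. Of the 4 such collagen windows with neither mark, 2 were overlapping windows of COL5A1, and the others were of COL7A1 and COL6A6. A GC box was in 54.5% of collagen windows and 56.3% of all, a CCAAT box in 31.8% and 34.6%, a TATA box in 18.2% and 9.46%, and the AP-1 site in 2.27% and 6.15%. Windows of 1 gene or of a head-to-head pair can overlap, so they are not independent.

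Most genes that process collagen chains held both marks at the start, as did 57.7% of all protein-coding genes. Whether they differ from that share or from the chains was not tested. Of 27 genes for hydroxylation, folding and cross-linking, 19 had both marks at the start, 6 H3K4me3 only and 2 H3K27ac only, beside backgrounds of 57.7%, 12.3% and 2.27%. P4HA1, a subunit of prolyl 4-hydroxylase, had an H3K27ac start score of 811, PLOD2, a lysyl hydroxylase, 3100, and SERPINH1, the collagen chaperone, 1908. ADAMTS2, which cleaves procollagen, held 2 H3K4me3 peaks and no H3K27ac. Of 10 collagen receptors, 5 had both marks at the start, including DDR1 (H3K27ac score 3100), ITGB1 (2665) and ITGA2 (89.1), 2 had H3K4me3 only, 1 H3K27ac only and 2 neither. Of 17 other basement membrane genes, 10 had both marks at the start, 5 H3K4me3 only and 2 neither. LAMC1, a laminin chain, had an H3K27ac start score of 3100 and LAMB3 350, whereas NID1, which links laminin to type IV collagen, and LAMA1 had H3K4me3 scores of 3100 and no H3K27ac at the start.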

How the data were processed

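H3K27ac and H3K4me3 peaks of HCC1599 cells were used. Formaldehyde-fixed chromatin was cut by sonication and micrococcal nuclease, per the labels' protocols. Per the submitters' processing notes, Bowtie2, MACS 1.4 and hg38 were used; parameters and replicate handling are not given in the sources used here. The authors deposited 1 peak list per mark, with positions and a score per peak; the score was not rescaled. The lists held 72895 and 32045 peaks, of which 72894 and 32043 on chromosomes 1 to 22 and X were used; read depth is unknown, so 1 library per mark allows no test.

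Gene spans and starts came from RefSeq tables of GRCh38.p14, the build family of hg38. The gene table gives no strand, which the promoter table gives for 32 of 44 collagens. A mark was called where a peak overlapped a window by at least 1 bp. Every collagen gene could be named; among the other collagens those with the greatest covered length per state were given in full. The members, classes and lists were chosen with earlier results of these data known. Overlaps were checked against bedtools 2.31.1, with 0 genes differing, and tested on simulated data, where 2000 of 2000 genes were called as placed. Alternatives were score, list length, window, overlap rule and peaks at ends of other genes; 2 of them, on starts, were added after seeing the data. Computations used Python 3.11.15, numpy 2.4.6, pandas 2.3.3 and scipy 1.17.1.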

Additional observations from a re-analysis of the deposited data

How the results depend on the processing

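Of 80 values recomputed under the alternatives, 62 were equal to the reported value or within 1.5 times of it. The width of the gene window, the overlap rule and leaving out peaks at ends of other genes moved none of the counts of collagens per state or class beyond that. The score threshold and equal list lengths, which by construction leave fewer peaks, moved most. A score of at least 100 kept 39.9% of all H3K27ac peaks and 69.9% of all H3K4me3 peaks. It thus removed H3K27ac more often, which by itself moves genes from both marks to H3K4me3 only. With a score of at least 100, 18 collagens had both marks in the gene, 12 H3K4me3 only, 3 H3K27ac only and 11 neither. Both marks were left in 2 type IV and 11 other collagens. At the start, 6 of the 44 collagens had both marks (13.6%, against 50.7% of all protein-coding genes at that score) and 1 had H3K27ac only. The median number of H3K27ac peaks was then 0 in fibrillar, 0 in type IV and 1 in other collagens. With equal list lengths, 13 collagens had H3K4me3 only, 1 had H3K27ac only and 9 had neither, and 3 type IV genes had both. Under these 2 settings the whole-gene shares over all protein-coding genes were not computed. The whole-gene counts there cannot be told apart from a loss of peaks over all genes. Among the 32 collagens with a start in the promoter table, 9 had neither mark at the start. That count is of fewer genes, and the shares were close, 28.1% of the 32 and 31.8% of all 44 collagens. Per 100 kb, which is another unit, the median was 1.53 H3K27ac peaks in type IV and 1.85 in other collagens. H3K4me3 only at the start was 38.6% of collagens and 12.3% of all protein-coding genes as reported, 40.9% and 12.6% within 500 bp, 36.4% and 12.0% within 2.5 kb, and 45.5% and 18.0% with a score of at least 100. No paired analysis was possible because each mark has 1 library. Depth limits every absence: a weak peak of H3K27ac may be missed, and 46.8% of the H3K27ac peaks in collagens scored under 50, near the minimum.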
